A study of Mus musculus with 4 samples.

Results

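The genes described here are 10 genes that mark macrophages in tumour tissue: C1qa, C1qb, C1qc, Csf1r, Trem2, Tyrobp, Fcer1g, Lyz2, Cx3cr1 and Laptm5. They were chosen by name, with earlier results of these data known. Each was read by 1 probe set that the platform annotation assigns to that gene alone, and all 10 were found among 22180 named genes. Gene expression was measured on 1-colour Affymetrix arrays in 4 primary mouse tumours, 1 array per tumour. All 4 tumours carried mutant Alk, the TH-MYCN transgene and Stat6-/- on a C57BL\6 x 129Sv/J background, so they form 1 group, and ages were not given. In TH-MYCN mice the tyrosine hydroxylase promoter drives MYCN in sympathetic cells, from which neuroblastoma arises. Loss of Stat6, the factor that carries IL-4 and IL-13 signals in macrophages, was shared by every sample. Tumours of other genotypes were not analysed here, and levels and the spread between tumours are given with no test between groups. Nothing says whether each tumour came from its own animal.

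Macrophages enter solid tumours from the blood and from neighbouring tissue, and there they clear dying cells, present antigen and shape the growing stroma. CSF1R, the receptor for CSF1 and IL-34, keeps them alive. TREM2 binds lipids and signals through TYROBP, an adaptor with an ITAM, a short tyrosine motif that recruits the kinase SYK. FCER1G is the matching adaptor of Fc receptors. C1QA, C1QB and C1QC are the chains of C1q, which starts the classical complement pathway and is made in many tissues by macrophages themselves. LYZ2 is the lysozyme of myeloid cells, LAPTM5 a lysosomal membrane protein of leukocytes, and CX3CR1 the fractalkine receptor of monocytes, resident macrophages and microglia.

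The promoters of 3 members are shown because they belong to genes that differed in their pattern over the tumours: C1qb and Trem2 were both lowest in tumour 3, and Cx3cr1 was not. Each run is the 250 bases before the annotated start, 5′ to 3′ on the gene's strand, from RefSeq on GRCm38.p6. Capitals mark GAGGAA, a core that the myeloid factor PU.1 can bind, read on either strand, so that TTCCTC is the same motif on the opposite strand. The windows are chr4:136886201-136886450 on the minus strand for C1qb, chr17:48346151-48346400 on the plus strand for Trem2 and chr9:120068297-120068546 on the minus strand for Cx3cr1.
C1qb: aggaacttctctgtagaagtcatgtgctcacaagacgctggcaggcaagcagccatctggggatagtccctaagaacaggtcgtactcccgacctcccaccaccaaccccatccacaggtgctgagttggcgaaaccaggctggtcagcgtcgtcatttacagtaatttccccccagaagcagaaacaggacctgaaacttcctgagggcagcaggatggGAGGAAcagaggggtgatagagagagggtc
Trem2: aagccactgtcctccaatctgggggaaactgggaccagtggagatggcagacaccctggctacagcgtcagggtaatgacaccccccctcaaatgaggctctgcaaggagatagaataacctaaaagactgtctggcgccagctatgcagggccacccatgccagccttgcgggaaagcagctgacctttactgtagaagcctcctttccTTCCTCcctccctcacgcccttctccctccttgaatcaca
Cx3cr1: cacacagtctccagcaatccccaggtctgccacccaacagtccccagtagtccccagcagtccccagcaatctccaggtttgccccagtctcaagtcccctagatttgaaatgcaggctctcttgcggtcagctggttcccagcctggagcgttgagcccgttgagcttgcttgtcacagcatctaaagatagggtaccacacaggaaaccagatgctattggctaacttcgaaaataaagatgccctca

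The motif lay 30 to 25 bases before the start of C1qb and, on the opposite strand, 40 to 35 bases before that of Trem2. These letters were not in the Cx3cr1 window. Of the 7 members in the promoter table, 4 held the motif (C1qb, C1qc, Trem2 and Laptm5) and Fcer1g, Lyz2 and Cx3cr1 did not. Fcer1g and Lyz2 were lowest in tumour 3 as C1qb and Trem2 were, so the motif did not sort the members by that pattern. Of all 32851 windows of this length in the table, 23.3% held the motif. For C1qc and Laptm5 the window lies before a start that is not the outermost one of the gene. C1qa, Csf1r and Tyrobp were not matched. A match describes the letters and is no evidence of binding.

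Values are treated as log2, so 1 unit is 2-fold. Background was taken from 1390 genes of olfactory and vomeronasal receptors, which this tissue is not known to use. The floor is the 95th percentile of their means, 6.17, and a gene is above it when its own 4-tumour mean is higher. All 10 members passed, against 40.5% of all genes. At the 99th percentile of the receptor genes, 7.14, 6 members passed, against 25.3% of all genes, and C1qc, Csf1r, Trem2 and Laptm5 did not. C1qc and Csf1r were 0.046 and 0.048 above the floor. Without tumour 1 both lay under a floor recomputed on the remaining tumours, and without tumour 2 or tumour 4 C1qc alone did. The brightness of a probe set depends on its probes, so the levels of different members are not ranked against each other.

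**Figure D1:**
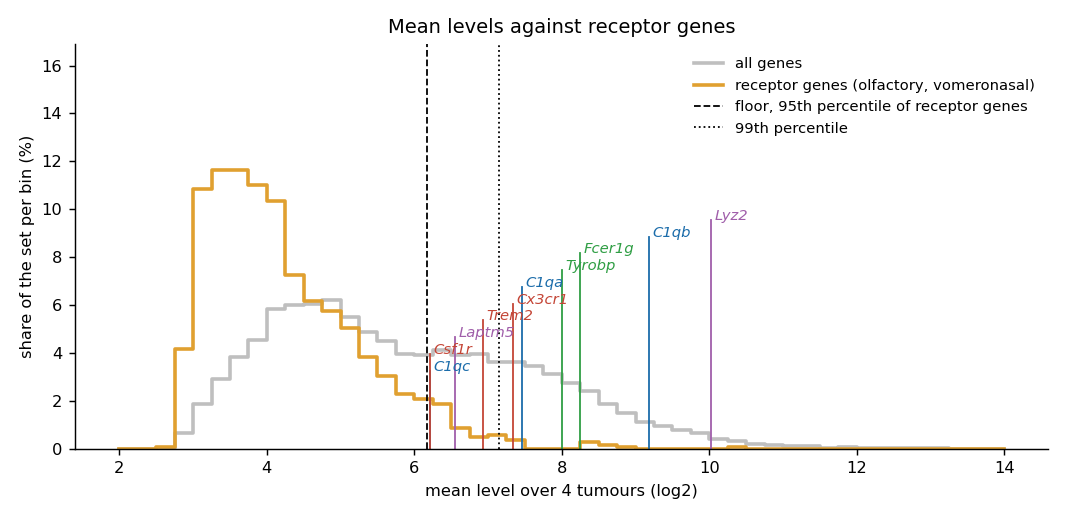
Distribution of mean level over the 4 tumours (x axis, log2) for all 22180 genes and for 1390 receptor genes (y axis, percent of each set per bin), with a coloured vertical line at each member's mean and line heights set only to separate the names. All 10 members lie right of the dashed floor at 6.17, C1qc and Csf1r next to it, and 6 lie right of the dotted line at 7.14.

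The C1q chains were lower in tumour 3 than in the other tumours. C1qa measured 7.66 in tumour 1, 7.55 in tumour 2, 7.11 in tumour 3 and 7.52 in tumour 4, a mean of 7.46 ± 0.24 (SD, n = 4). C1qb measured 9.39, 9.41, 8.67 and 9.26 in tumours 1 to 4, a mean of 9.18 ± 0.35 (SD, n = 4). C1qc measured 6.27, 6.37, 5.68 and 6.54, a mean of 6.21 ± 0.37 (SD, n = 4). In each of the 3 genes the other tumours lay close together and tumour 3 lay apart. The step from tumour 3 to the next tumour was 0.41 for C1qa, 0.59 for C1qb and 0.59 for C1qc, whereas the other tumours spanned only 0.14, 0.15 and 0.27. The 3 genes are neighbours on mouse chromosome 4 in the RefSeq gene order, C1qb, C1qc, C1qa. Epha8, an ephrin receptor gene that follows them, was under the floor at 5.10 ± 0.27 (SD, n = 4) and was not low in tumour 3, where it measured 5.14.

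The surface receptors did not share 1 pattern. Trem2 measured 7.12, 7.07, 6.29 and 7.24 in tumours 1 to 4, a mean of 6.93 ± 0.43 (SD, n = 4). Its step from tumour 3 to the next tumour, 0.78, was the largest among the members, while the other tumours lay within 0.17. Csf1r measured 6.90, 6.19, 5.64 and 6.13, a mean of 6.21 ± 0.52 (SD, n = 4). It was highest in tumour 1, by 0.71 over the next tumour, and its range of 1.26 was the widest among the members.

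Cx3cr1 went another way. It measured 7.23, 7.08, 7.36 and 7.69 in tumours 1 to 4, a mean of 7.34 ± 0.26 (SD, n = 4). Its highest value was in tumour 4, its lowest in tumour 2, and tumour 3 lay second from the top. Pdgfrb, a neighbouring gene of Csf1r and a receptor of pericytes and fibroblasts, measured 6.29, 6.26, 6.34 and 5.96. It did not share the high value of Csf1r in tumour 1. Hmgxb3, the neighbour on the other side, was above the floor and highest in tumour 1, at 7.75, 7.71, 7.46 and 7.41.

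The ITAM adaptors were highest in tumour 2 and lowest in tumour 3. Tyrobp measured 8.18, 8.37, 7.54 and 7.90 in tumours 1 to 4, a mean of 7.997 ± 0.358 (SD, n = 4). Fcer1g measured 8.38, 8.51, 7.87 and 8.21, a mean of 8.24 ± 0.28 (SD, n = 4). In these values both genes placed the tumours in the same order, tumour 2, tumour 1, tumour 4 and tumour 3. Relative to genes of like level, a scale given below, Fcer1g was higher in tumour 4 (0.086) than in tumour 1 (0.0037). Tyrobp was not (0.0083 and 0.050), so the middle of the order was not shared there. Hcst, the adaptor gene next to Tyrobp, was under the floor at 5.23 ± 0.23 (SD, n = 4) and was lowest in tumour 1, at 4.91. Lrfn3, on the other side of Tyrobp, was also under the floor, at 5.27 ± 0.22 (SD, n = 4), and lowest in tumour 3, at 4.94.

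Lysozyme and the lysosomal membrane gene had their extremes in the same tumours as the adaptors. Lyz2 measured 10.04, 10.49, 9.41 and 10.16 in tumours 1 to 4, a mean of 10.02 ± 0.45 (SD, n = 4). Lyz1, its close paralogue and neighbour, was under the floor at 5.46 ± 0.17 (SD, n = 4) and lowest in tumour 3 too, at 5.27. How far the probe sets of the pair share signal is not known. Laptm5 measured 6.70, 6.75, 6.20 and 6.56, a mean of 6.55 ± 0.25 (SD, n = 4). Tumour 3 was lowest in both genes and tumour 2 highest.

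**Figure D2:**
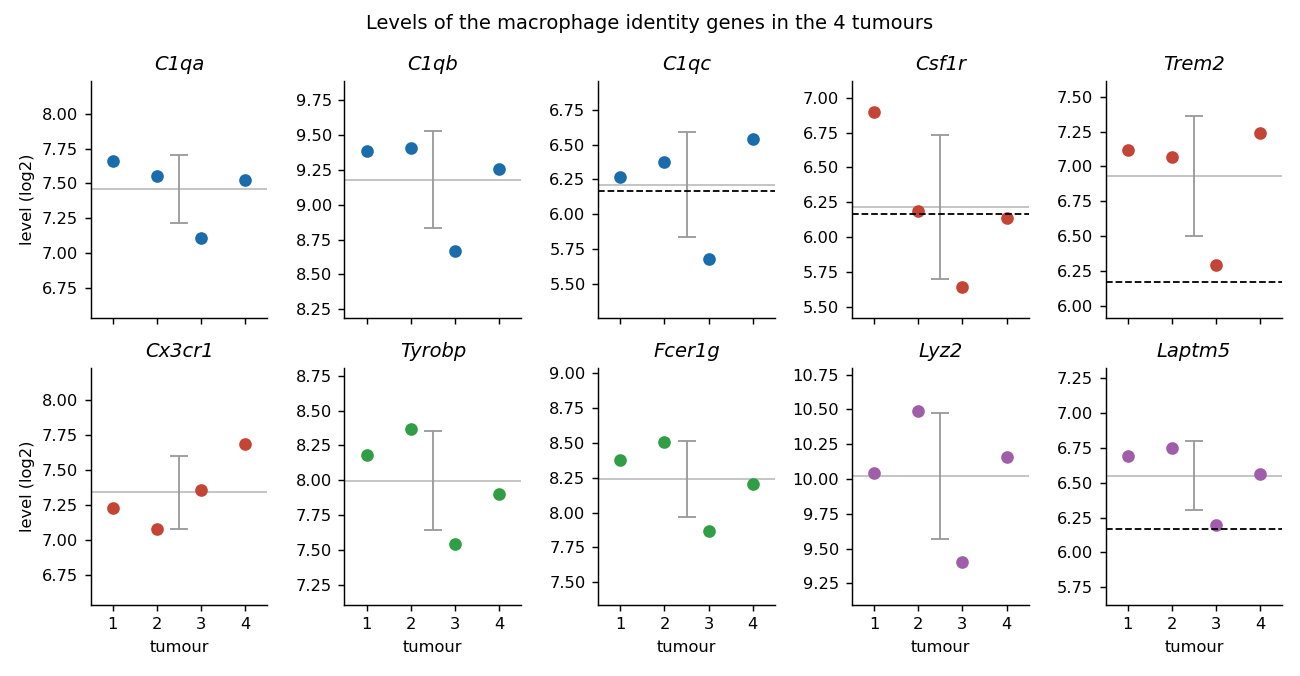
Level (log2, each panel spanning the same number of units) of each member in tumours 1 to 4, 1 point per array; the grey line is the mean, the grey bar ± 1 SD (n = 4) and the dashed line the floor at 6.17 where it falls in the panel. Tumour 3 is the lowest point in 9 panels and Cx3cr1 is the exception.

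In 9 of the 10 members tumour 3 gave the lowest value, and it did so in 36.0% of all genes above the floor. In the values as deposited, the highest value was in tumour 2 for 5 members, against 26.9% of genes above the floor. It was in tumour 4 for 3 members, against 15.5%, and in tumour 1 for 2 members, against 46.6%. No member had its highest value in tumour 3, against 11.0%. Only Csf1r and Lyz2 reached a range of 1 log2 unit, 2 of 10, where 4.26% of genes above the floor did, and all 10 reached a range of 0.5, against 35.0%. The median range was 0.78 over the members and 0.41 over all genes above the floor. Without tumour 3 it was 0.28 over the members and 0.34 over all genes, and no member reached 1. Without tumour 1 only Lyz2 reached a range of 1, and without tumour 2 only Csf1r did.

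The arrays differed by an offset that depended on level. The median deviation of genes above the floor from their own means was 0.12, 0.044, -0.085 and -0.082 in tumours 1 to 4, whereas the medians of the receptor genes went the other way, at 3.85, 3.95, 4.10 and 4.10. Relative deviations therefore subtract the median deviation of genes of like level on the same array. On that scale the members' median was 0.042 in tumour 1, 0.16 in tumour 2, -0.38 in tumour 3 and 0.18 in tumour 4, with SDs over the 10 members of 0.22, 0.18, 0.20 and 0.17. With no offset subtracted the medians in tumours 1, 2 and 4 were 0.16, 0.18 and 0.069, and with arrays centred on their medians 0.23, 0.21 and 0.0016, so which tumour lay highest depended on this choice. In tumour 3 the 9 lower members lay between -0.56 for Trem2 and -0.27 for C1qa, and Cx3cr1 lay at 0.10. Tumour 3 was again the lowest in 9 of 10 members, against 24.4% of genes above the floor. The highest tumour changed for some members: on this scale it was tumour 4 for C1qa, C1qb, C1qc, Trem2 and Cx3cr1. It was tumour 2 for Tyrobp, Fcer1g, Lyz2 and Laptm5, and tumour 1 for Csf1r. The share of all genes with each highest tumour on this scale is not given. A relative deviation of -0.25 or less in tumour 3, a limit chosen after the values were seen, held for 9 of 10 members and for 6.02% of genes above the floor. In a bulk tumour, fewer macrophages and less RNA of these genes per macrophage cannot be told apart.

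**Figure D3:**
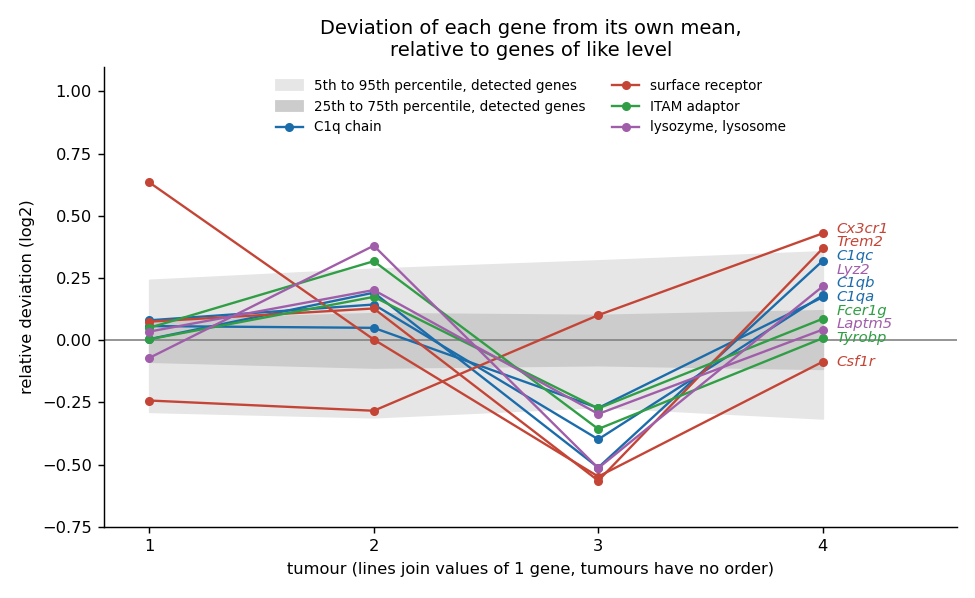
Relative deviation (y axis, log2) of each member from its own mean in tumours 1 to 4 (x axis), coloured by role; lines join the values of 1 gene, and the grey bands give the inner and outer spread of genes above the floor named in the key. In tumour 3, 9 members lie at -0.27 or lower and Cx3cr1 at 0.10, and Csf1r stands at 0.63 in tumour 1.

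The members also differed from each other in how tumours 2 and 4 compared. The value in tumour 2 exceeded that in tumour 4 in 7 members, as in 65.0% of genes above the floor. The difference, tumour 2 minus tumour 4, was 0.47 for Tyrobp, 0.33 for Lyz2, 0.30 for Fcer1g, 0.19 for Laptm5, 0.15 for C1qb, 0.053 for Csf1r and 0.032 for C1qa. It was -0.16 for C1qc, -0.17 for Trem2 and -0.61 for Cx3cr1. The adaptors, lysozyme, Laptm5, C1qb, Csf1r and C1qa were thus on one side and C1qc, Trem2 and Cx3cr1 on the other. The count of 7 is near the share over all genes above the floor, so no trait of the members is read from it. On the relative scale C1qa (-0.12) and C1qb (-0.037) changed side to join Trem2 (-0.24), C1qc (-0.13) and Cx3cr1 (-0.71), while Tyrobp (0.31), Lyz2 (0.16), Laptm5 (0.16), Fcer1g (0.088) and Csf1r (0.089) stayed. The share of all genes on each side of that scale was not computed. Tumour 4 was also the only one with signal for Xist, which coats and silences an X chromosome in female cells, at 10.13 against 3.89 to 3.95, and the labels give no sex; sex and other differences of tumour 4 cannot be told apart.

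Pairs of members were compared by the root mean square difference of their 4 deviations, where 0 means the same pattern. The closest pair was Fcer1g and Laptm5, at 0.039, followed by C1qa and Laptm5 at 0.066, Tyrobp and Fcer1g at 0.078 and C1qc and Trem2 at 0.087. Cx3cr1 was farthest from the rest, with a median of 0.41 to the other members, and Csf1r was next, with 0.33. For the remaining members this median lay between 0.14 and 0.21.

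By the same measure, the 10 genes most like the median pattern of the members, out of 2869 candidates above the floor with a range of at least 0.5, were Ap1ar, Zfp128, Pmm2, Fbxw7, Entpd7, Prox1, Nrep, Fdps, Lrrc57 and Exosc9, with differences from 0.032 to 0.053. None of these 10 was in any of the gene lists drawn up around the members. Those lists held only 182 of the 22180 genes, so any 10 genes would seldom include 1 of them. Nothing is read from this. Ap1ar, an adaptor-binding protein gene, measured 10.09, 10.13, 9.49 and 10.07 in tumours 1 to 4, and Fbxw7, a ubiquitin ligase subunit that marks MYC proteins for destruction, 7.998, 8.08, 7.31 and 7.95. The nearest leukocyte gene of the lists, Coro1a, an actin-binding protein of leukocytes, came at rank 112 with 0.10, and the nearest macrophage gene, Ms4a7, at rank 135 with 0.11.

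Of 20 other macrophage surface and effector genes, 5 passed the floor, and so did 3 of 9 defining macrophage markers. The share of all genes that passed was 40.5%, to be read beside each list count below. Cd68, a lysosomal glycoprotein of macrophages, measured 8.63 ± 0.40, Ly86, a partner of the toll-like receptor family, 6.71 ± 0.46, and Sirpa, an inhibitory receptor that neurons express too, 7.09 ± 0.06 (SD, n = 4). The remaining 2 were Mpeg1, a pore-forming protein of phagocytes, at 6.43 ± 0.28 and Ms4a7 at 7.27 ± 0.25 (SD, n = 4). All 5 were lowest in tumour 3, against 36.0% of genes above the floor. Their median relative deviation there was -0.34, while Sirpa hardly varied. Cd68, Mpeg1 and Ms4a7 were the 3 defining markers that passed. Of those that did not, Adgre1, which encodes F4/80, stood at 6.04 ± 0.29, Mertk, an engulfment receptor, at 6.12 ± 0.33 and Spi1, which encodes PU.1, at 5.82 ± 0.14 (SD, n = 4). The remaining defining markers lay farther under the floor: Msr1 at 5.64 ± 0.17, Cd14 at 4.87 ± 0.16 and Aif1 at 4.78 ± 0.10 (SD, n = 4). All are named here because they define the cell type. None of 8 measured myeloid transcription factors passed the floor.

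The partners of the members were read from lists as well. Of 18 receptors for or beside ITAM adaptors, 2 passed, and both are lectins that recognise fungal sugars. Without tumour 1 only 1 passed, Clec7a, and at the 99th percentile floor 0 did. Clec7a measured 7.15, 7.73, 6.71 and 6.96 in tumours 1 to 4, and Clec4n, which pairs with FCER1G, 6.55, 6.68, 5.95 and 6.20. Both were highest in tumour 2 and lowest in tumour 3, the order of the ends seen in Tyrobp and Fcer1g. Of 10 measured enzymes and scaffolds of ITAM signalling only Lcp2, an adaptor of that pathway, passed, at 6.86 ± 0.12, and Syk itself stood at 5.38 ± 0.18 (SD, n = 4).

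Ligands of the receptors were mostly under the floor. Csf1 measured 5.25 ± 0.08, Il34 5.03 ± 0.17 and Cx3cl1, the fractalkine gene, 4.93 ± 0.13 (SD, n = 4). Being under the floor leaves a gene's expression undetermined. Apoe, a lipid carrier that TREM2 binds, was above it at 7.00 ± 0.21, as was Lgals3, a sugar-binding protein, at 6.48 ± 0.18 (SD, n = 4).

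Of 16 measured complement partners and receptors, 6 passed. Serping1, the C1 inhibitor, had the widest range, with 7.64 in tumour 1 and 6.06 to 6.37 in the others. Csf1r was also highest in tumour 1, as were 46.6% of genes above the floor. Without tumour 1 both Serping1 and Csf1r lay under the floor. Calr, calreticulin, a chaperone that also binds C1q, had the narrowest, at 10.31 ± 0.10 (SD, n = 4), and C1qbp, a mitochondrial protein named for C1q binding, measured 8.63 ± 0.34 (SD, n = 4). Cfp, properdin, named after its values were seen, measured 7.26, 7.07, 7.28 and 7.68 in tumours 1 to 4, highest in tumour 4 and lowest in tumour 2 as Cx3cr1 was. The median relative deviation of the 6 genes in tumour 3 was -0.051.

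Leukocyte and lysosomal genes are shared by more cells than macrophages. Of 12 pan-leukocyte genes 4 passed, against 40.5% of all genes. All 4 were lowest in tumour 3, against 36.0% of genes above the floor, with a median relative deviation of -0.27 there. Cd53, a tetraspanin, measured 7.13, 7.19, 6.56 and 7.40 in tumours 1 to 4, Coro1a 7.29, 7.09, 6.49 and 7.22, and Rac2, a small GTPase of blood cells, varied least, at 6.71 ± 0.13 (SD, n = 4). All 12 measured lysosomal genes passed, and 8 of them were lowest in tumour 3, against 36.0% of genes above the floor. The median relative deviation of the 12 there was -0.097. Gpnmb, a glycoprotein of lipid-laden macrophages and pigment cells, ran from 7.56 in tumour 3 to 9.64 in tumour 4, a range of 2.08. Ctsd, cathepsin D, measured 10.37 ± 0.27, and Ctsz, cathepsin Z, 9.27 ± 0.07 (SD, n = 4).

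Several members are also expressed by other blood cells: Fcer1g by mast cells, Tyrobp and Cx3cr1 by NK cells, and Lyz2 by neutrophils. Of the neutrophil list 0 of 12 genes passed the floor, of the mast cell and basophil list 0 of 8, of the monocyte list 0 of 7 and of the skeletal muscle list 0 of 10, although the labels name a neck muscle as the tissue. The summed linear signal of the neutrophil list, which is signal under the floor, was lowest in tumour 1, at 260, and highest in tumour 4, at 323, the tumours in which the receptor genes' medians were also lowest and highest. Of the T and NK cell list 2 of 12 passed: Prf1, perforin, at 6.50 ± 0.26, and Thy1, which neurons and fibroblasts express too, at 6.85 ± 0.80 (SD, n = 4). Its summed signal was highest in tumour 3, at 578 against 391 to 469, and Thy1 itself was highest there, at 7.95. Without Thy1 the sum over the remaining 11 genes was 299, 322, 331 and 383 in tumours 1 to 4, so the high value in tumour 3 rested on that gene. Their part in the members' pattern was not tested.

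Of 9 measured genes of microglia and resident macrophages 1 passed, P2ry13, a purine receptor, at 6.37 ± 0.31 (SD, n = 4). It was highest in tumour 4, at 6.81, as Cx3cr1 was, but lowest in tumour 1, at 6.10, where Cx3cr1 was lowest in tumour 2. P2ry12 and Tmem119, which define microglia, stood at 5.47 ± 0.19 and 4.90 ± 0.09 (SD, n = 4). Of the dendritic cell list 1 of 8 passed, Cd209a, and of the B cell list 1 of 7, Ighm, and neither was low in tumour 3. Cd209a, a lectin, measured 10.13 there and Ighm, the heavy chain of IgM, 7.13. With the mean of a gene's probe sets in place of the brightest, 0 genes of the B cell list passed. None of 3 measured platelet genes passed.

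The 7 measured genes of sympathetic tumour cells all passed, and their median relative deviation was 0.033 in tumour 3, -0.27 in tumour 2 and 0.26 in tumour 4. Gata3, a sympathetic transcription factor, varied least, at 8.05 ± 0.04, Dbh, which makes noradrenaline, measured 10.64 ± 0.33, and Chga, a granule protein, 9.88 ± 0.28 (SD, n = 4). Tumour 3, where 9 members were lowest, was the lowest tumour in 3 of these 7 genes, against 36.0% of genes above the floor.

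**Figure D4:**
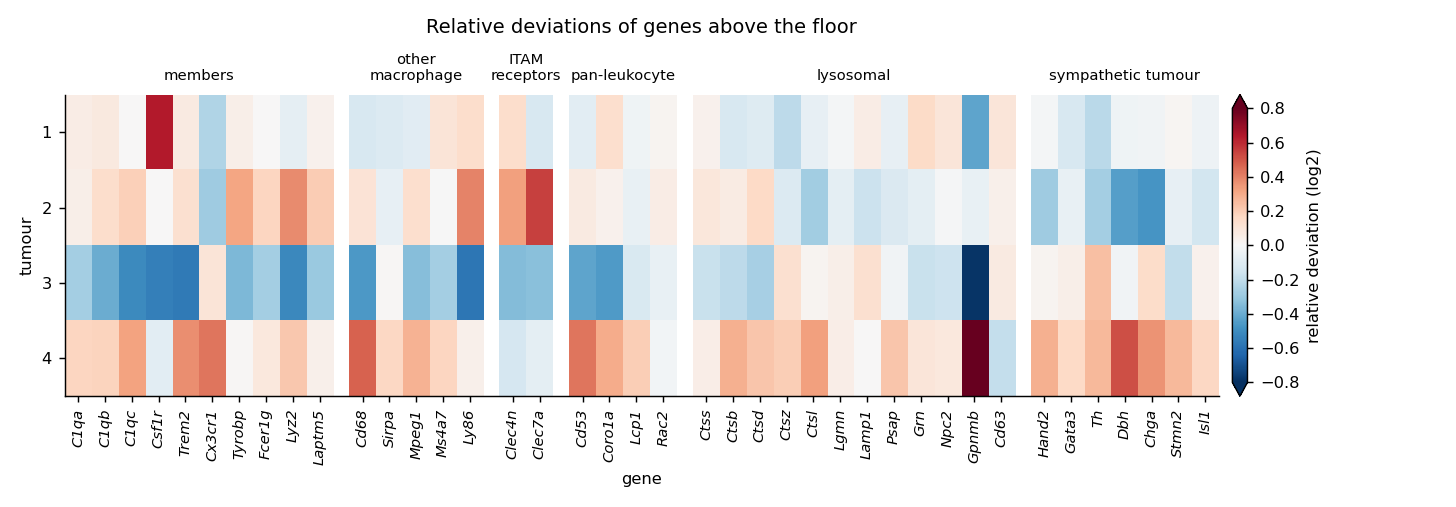
Relative deviation (colour, log2, red above and blue below genes of like level) of the 10 members and of the genes above the floor in 5 other lists (x axis) in tumours 1 to 4 (y axis). The row of tumour 3 is blue in 9 members, in most other macrophage genes and in the ITAM receptors. It is also blue in the pan-leukocyte genes, only faintly in Lcp1 (-0.12) and Rac2 (-0.062), and is mixed in the lysosomal and sympathetic genes. The colours stop at 0.8, and Gpnmb in tumour 4 lies beyond.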

How the data were processed

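Per the labels' protocols, total RNA came from a Trizol extraction and was biotin-labelled through cDNA made with an Affymetrix kit. RMA, a background correction, array normalization and probe summary, and the package Partek are named in the submitters' processing notes, with no version or setting. The deposited values, 1 per probe set and tumour for 41345 probe sets, run from 2.47 to 13.6. They were treated as log2 values because of that range, and the log base is not stated; they are not centred per gene. Array medians lay between 5.15 and 5.29. No depth applies, and 4 arrays limit the precision.

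Of the probe sets, 23521 carried 1 gene in the platform annotation, 1814 several and 16010 were not listed. Symbols were updated by Entrez identifier with RefSeq (23328 matched). The brightest probe set of a gene was used. Genes of like level were those in the same of 20 bins of mean level. Members and lists were chosen with earlier results of these data known. Genes named were the members, per list up to 2 with the widest and 1 with the narrowest range among those above the floor, and the 10 nearest to the members' median pattern without predicted genes or small RNAs; others are said to be so or define a cell type or stand next to a member. The procedure was tested on simulated data. Python 3.11.15, pandas 2.3.3 and numpy 2.4.6 were used. The alternatives were other floors, probe set rules, offsets, a further quantile normalization and leaving out each tumour.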

Additional observations from a re-analysis of the deposited data

Results flagged for a closer look

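No member had a tumour far enough from the others to pass Dixon's 95% limit for 4 samples, though Trem2 came close, with a ratio of 0.82 for tumour 3. Of the other genes named, 5 passed it: Prox1 (ratio 0.906), Ap1ar (0.899), Zfp128 (0.865), Entpd7 (0.861) and Nrep (0.833). In each of them tumour 3 was the low one; Prox1, for example, measured 8.61 there against 9.24 to 9.31. Chance passes about 1 group in 20, and these genes were picked for their likeness to a pattern that is low in tumour 3, so the direction follows from the choice.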

How the results depend on the processing

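The count of members lowest in tumour 3 was 9 under each alternative that could give it: the mean of probe sets, a further quantile normalization, relative deviations, and without tumour 1, 2 or 4. The members' median relative deviation in tumour 3 ran from -0.34 to -0.31 over the leave-one-out runs. Over the other alternatives the median ran from -0.52, with arrays centred on their medians, to -0.32, with the members above the 99th percentile floor. Medians with arrays centred or with no offset subtracted, here and below, are of plain deviations from each gene's mean. Genes of like level are not subtracted in them. The median relative deviation in tumour 1 ran from -0.082 to 0.088 and that in tumour 2 from -0.00062 to 0.21 when a tumour was left out, both below 0 only without tumour 3. The plain median in tumour 1 was 0.16 with no offset subtracted and 0.23 with arrays centred on their medians, against a relative 0.042 as given. In tumour 4 the relative median ran from 0.054 to 0.21 when a tumour was left out, and the plain one was 0.0016 with arrays centred on their medians. The number of members above the floor was 8 to 10 when a tumour was left out and 6 at the 99th percentile floor. The number with a range of at least 1 was 0 to 2 when a tumour was left out, and with the limit at 0.5 it was 10. The counts in other lists depended on the floor. At the median of the receptor genes 9 of 12 neutrophil, 5 of 8 mast cell and basophil, 6 of 7 monocyte and 10 of 10 muscle genes passed where 0 had. The share of all genes above that median was not computed, so nothing is read from these counts. At the 99th percentile, passed by 25.3% of all genes, 2 of 20 other macrophage genes passed where 5 had. There 0 of 12 pan-leukocyte genes passed where 4 had. Apart from what the construction of each alternative shows, the cause was not tested. No paired analysis was possible because there is 1 group. A deviation in a tumour has no value without that tumour. Values near the floor understate differences, which bears most on C1qc and Csf1r.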
